A study of Homo sapiens with 8 samples.

Results

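The genes described here are 10 genes grouped as tissue-restricted whose RNA differed between lines of Jurkat, a human T cell leukaemia line. Whether each of them is restricted to tissues other than lymphocytes was not tested. They are CFTR, PRG4, PI16, PROK2, TNNT1, COBLL1, CABCOCO1, FAM81A, SH3BP5 and SH3BP4, which are 10 of the 16578 genes with a probe on the array. They were chosen from the measured differences between the lines themselves, so those differences are given below as a description and not as tests. All 12 probes that carry their symbols were read, among 22184 on the chip, and 10 of the 12 passed the filter on dim probes, 1 for each gene. The 2 that did not pass are further probes of SH3BP5.

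Gene expression was read from 8 arrays of the Illumina HumanRef-8 design, a bead-based microarray, with 2 arrays for each of 4 lines. WT is the untreated, TRAIL-sensitive parental line (Jurkat-WT). TR1, TR2 and TR3 (Jurkat-TR1, Jurkat-TR2 and Jurkat-TR3) are TRAIL-resistant subclones obtained by selection with 1000 ng/mL TRAIL, a death receptor ligand, for 12 weeks, and all lines were grown in the same serum-supplemented medium. Each resistant line is 1 clone and no unselected subclone was profiled, so resistance, subcloning and time in culture cannot be told apart. The arrays of a line are biological duplicates per the labels. Detected probes (detection p-value under 0.05) ranged from 12408 to 13437 per array, the median deposited intensity from 68.1 to 83, and duplicate arrays correlated at 0.9941 to 0.9967 across tested probes. Of 13 T cell marker genes on the array, 13, 12, 12 and 13 were detected on both arrays of WT, TR1, TR2 and TR3. CD3D, CD3E, CD3G, LCK and CD2 were among them in every line, and CD4 was not detected in TR1. Of 6 B cell marker genes on the array, CD79A, CD79B and BLK were detected on both arrays of every line. The summed intensity of this B cell list was 1003 to 1029 in WT, 772 to 775 in TR1, 948 to 987 in TR2 and 1001 to 1099 in TR3. Of its 3 tested genes 1 was called against WT in TR1, where 2.36% of genes were.

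Tissue-restricted genes are those whose product serves a specialised cell, such as a salt-secreting epithelium, the joint surface, slow muscle fibres, cilia or synapses. In other cells such a gene is usually held at a low or undetectable level by its chromatin and by the lack of its tissue's transcription factors. Cell lines that have been passaged for long often transcribe some of these genes, and cells of 1 culture can differ in which. In the sentences below a gene is called on in a line when its probe was detected on both arrays and off when it was detected on neither.

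By this measure WT had 9 of the 10 genes on, TR1 6, TR2 9 and TR3 7, while 0, 3, 1 and 2 were off in the same order. PRG4, PI16, PROK2 and TNNT1 were on in all 4 lines, as 11386 of 22184 probes were. COBLL1 and CABCOCO1 were on in WT and TR2 and off in TR1 and TR3, a pattern shared by 22 probes in all (0.0992%). SH3BP4 was off in TR1 and on elsewhere, as were 89 probes. SH3BP5 was on in TR1 and TR3, detected on 1 of 2 WT arrays, and off in TR2. The median span between the highest and the lowest line mean was 1.93 on the log2 scale for the 10 genes and 0.25 over the 13130 tested probes, as follows from how the genes were chosen. All 10 passed the moderated F test among the subclones (adjusted p under 0.05), where 3.71% of tested probes did (12.8% with the replicate number as a block), and all 10 spanned at least 2-fold, where 2.06% did. Against WT 7 passed in TR1 (2.25% of tested probes, 8.77% with the block), 4 in TR2 (0.632%, 3.88%) and 4 in TR3 (0.297%, 2.25%). Nothing is read from these counts because the genes were picked on them.

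**Figure D1:**
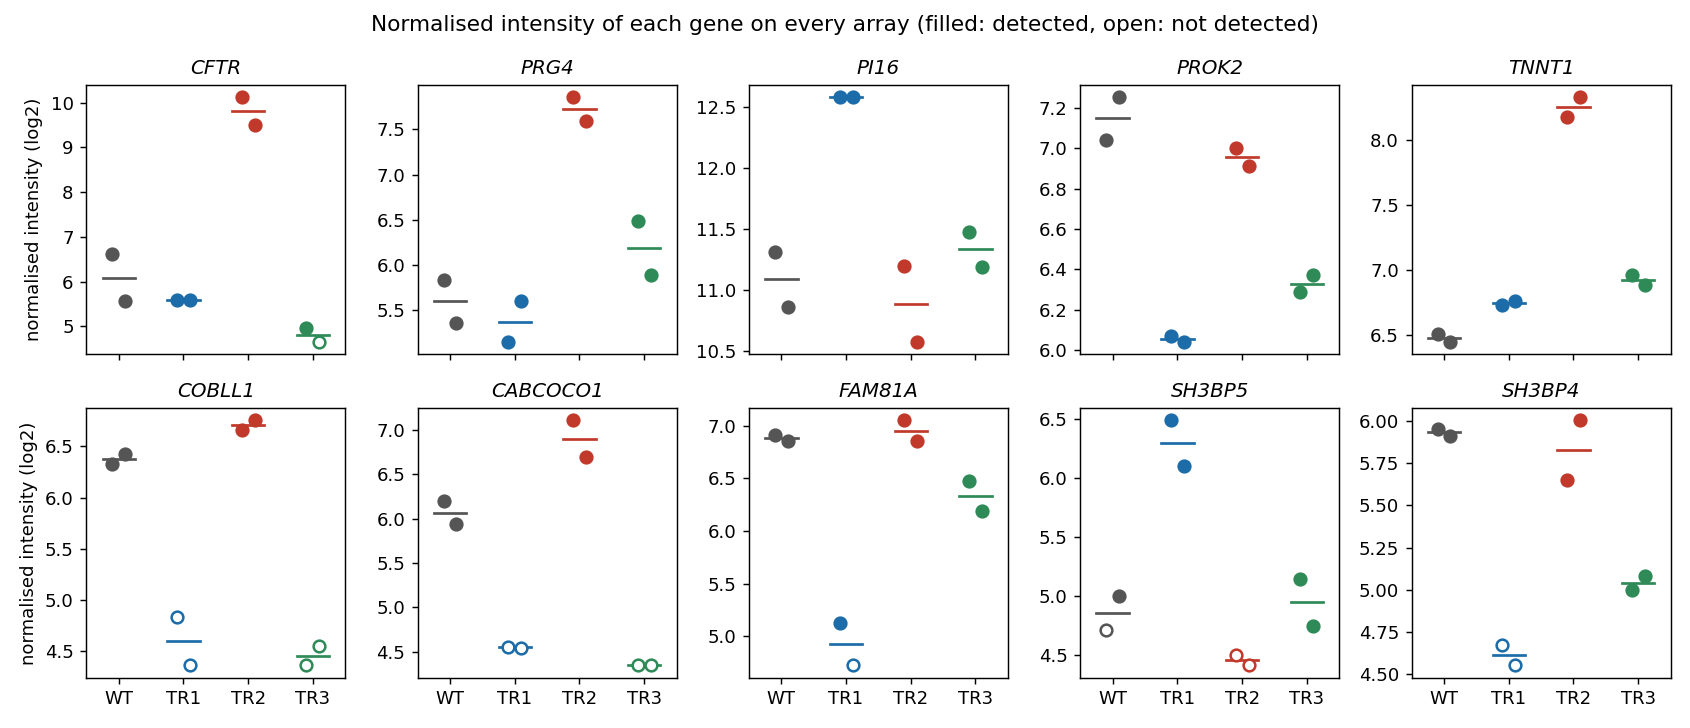
Normalised intensity (log2, vertical axis) of each of the 10 genes in WT, TR1, TR2 and TR3 (horizontal axis), with 1 point per array and a line at the mean of the 2 arrays; filled points are detected and open points are not. CFTR stands highest in TR2 (10.12 and 9.51), and COBLL1 and CABCOCO1 are not detected on any TR1 or TR3 array.

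CFTR encodes a chloride and bicarbonate channel of the ABC transporter family, which sits in the apical membrane of epithelia and is mutated in cystic fibrosis. Its deposited intensity was 139 and 79.3 on the WT arrays A and B, 86.2 and 80.9 in TR1, 1183 and 728 in TR2, and 75.6 and 66.6 in TR3. The 2 TR2 arrays lay far above all others, and TR3 array B was the array on which the probe was not detected. After background correction and normalisation the mean log2 value was 9.82 in TR2 and 6.09 in WT, a difference of 3.73 ± 0.3 (SE, n = 2 arrays per line), or 13.2-fold. TR2 exceeded TR1 18.8-fold. In TR3 the difference from WT was -1.28 ± 0.3 and in TR1 -0.5 ± 0.3, where the arrays overlapped with those of WT. The WT duplicates were far apart (6.61 and 5.57), so the TR1 value ran from -1.02 to 0.02 and the TR3 value from -1.8 to -0.76 when 1 array at a time was left out; without WT array A they were nearest to 0.

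Of 13 epithelial marker genes on the array, 4, 3, 5 and 4 were on in WT, TR1, TR2 and TR3. KRT8, KRT19, CLDN4 and CLDN7 were detected on 0 arrays, and MUC1, ELF3 and FOXA1 on both arrays of every line. KRT18 was detected on both WT arrays, 1 TR3 array and no array of TR1 or TR2. KRT7 was detected on both TR2 arrays, 1 TR3 array and no array of WT or TR1. ESRP1 was detected on both arrays of TR2 and TR3 and on 1 array each of WT and TR1. EPCAM was detected on 1 TR2 array, CDH1 on 1 array each of WT, TR1 and TR3, and CLDN3 on 1 each of WT and TR2. The summed intensity of the list was 971 to 1178 in WT, 1050 to 1147 in TR1, 1160 to 1221 in TR2 and 1200 to 1242 in TR3. The TR2 and TR3 sums thus lay toward or above the top of the WT range. The sums are not background corrected. Median deposited intensity over all probes was 78.6 and 68.1 in WT, 83 and 80.2 in TR2, and 81.6 and 79.9 in TR3. The fibroblast, muscle, neutrophil and brain sums given below also lay toward or above the top of WT in TR2 and TR3. The sums are therefore not read as levels of a tissue's genes. The part of the epithelial list in the CFTR values was not tested. Among 28 chloride channels, related ABCC transporters and CFTR partners on the array, 15 were tested and 0 were called in any subclone against WT, where 2.78% of all tested genes were (12.6% with the replicate block), so a count of 0 is near this background. Their median difference was -0.09 in TR2, against 0 over all tested probes.

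PRG4 encodes lubricin, a mucin-like proteoglycan that lubricates joint surfaces. Its intensity was 98.5 and 72.6 in WT, 75.2 and 81.4 in TR1, 287 and 226 in TR2, and 141 and 105 in TR3. TR2 was highest, TR3 lay between, and the WT and TR1 arrays overlapped. The difference from WT was 2.13 ± 0.23 in TR2 (4.36-fold), 0.59 ± 0.23 in TR3 and -0.22 ± 0.23 in TR1. The TR3 value ran from 0.29 without TR3 array A to 0.88 without TR3 array B, and was 0.35 without WT array B. The cartilage genes ACAN, COL2A1 and COMP were detected on 0 of 8 arrays. FBLN1 was detected on both arrays of every line, and COL1A1 on both arrays of WT and TR1 and 1 array each of TR2 and TR3. COL3A1 was detected on 1 array each of WT, TR1 and TR2, DCN on 1 TR2 array and CD34 on 1 TR3 array. Of the fibroblast and cartilage list 13 genes were on the array, with 2, 2, 1 and 1 on in WT, TR1, TR2 and TR3 and summed intensities of 1378 to 1572, 1409 to 1461, 1646 to 1674 and 1577 to 1584. The part that this list had in the PRG4 values was not tested. Of 18 matrix proteoglycan and joint genes, 2 were tested, and 0 were called against WT in any subclone without the replicate block. With it both were lower in TR1, SRGN, the proteoglycan of secretory granules, by a log2 difference of -0.61 (adjusted p = 0.000425) and PRG2, an eosinophil granule protein gene, of -0.31 (adjusted p = 0.0268). With the block 8.77% of all tested probes were called in TR1 and 12.6% of genes in at least 1 subclone. With 2 genes tested, nothing is read from this count.

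TNNT1 encodes the troponin T of slow skeletal muscle, which anchors the troponin complex to tropomyosin. Its intensity was 132 and 119 in WT, 141 and 136 in TR1, 344 and 346 in TR2, and 178 and 168 in TR3. The lines did not overlap and ran TR2, TR3, TR1 and WT from high to low. Relative to WT, TR2 was higher by 1.78 ± 0.1 (3.43-fold), TR3 by 0.45 ± 0.1 and TR1 by 0.27 ± 0.1. All 3 subclones thus stood on the same side of WT, unlike CFTR and PRG4. Of 11 muscle markers on the array 2, 2, 3 and 2 were on in WT, TR1, TR2 and TR3. TNNC1, the slow troponin C, and CKM, muscle creatine kinase, were detected on all 8 arrays. MYH7 was detected on both TR2 arrays and on 1 array each of WT and TR1, and TNNI1, MYL2, MYH2, DES and MYOG were detected on 0 arrays. The summed intensity of these markers was 827 to 1000 in WT, 909 to 977 in TR1, 1018 to 1038 in TR2 and 993 to 1010 in TR3. Their part in the TNNT1 values was not tested. Of 17 other sarcomere genes on the array, 6 were tested and 1, TNNI3, was called against WT, in TR1. Over all tested genes 2.78% were called in at least 1 subclone. TNNI3 is also a neighbour of TNNT1 and its call is described with the neighbours.

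PI16, a secreted member of the CAP superfamily that marks adventitial fibroblasts and is also found on some T cells, was highest in a different subclone. Its intensity was 2681 and 1809 in WT, 5828 and 5611 in TR1, 2481 and 1466 in TR2, and 3165 and 2517 in TR3. Both TR1 arrays were above all others, and the remaining 6 arrays overlapped. TR1 exceeded WT by 1.49 ± 0.21 (2.81-fold), while the values were -0.2 ± 0.21 in TR2 and 0.25 ± 0.21 in TR3. Of 10 other CAP superfamily genes on the array, CRISPLD2 and GLIPR1 were tested, and 0 were called against WT in any subclone. Over all tested genes 2.78% were called, so 2 genes are too few to set apart from this share.

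PROK2 encodes prokineticin 2, a small secreted ligand of G protein-coupled receptors that acts in olfactory neurogenesis, circadian signalling and neutrophils. Its intensity was 174 and 182 in WT, 104 and 96.9 in TR1, 180 and 159 in TR2, and 128 and 131 in TR3. On the normalised scale the lines ran WT, TR2, TR3 and TR1 from high to low with no overlap, although on the deposited scale 1 TR2 array reached the WT level. PROK2 was lower than WT by 2.13-fold in TR1 (-1.09 ± 0.11), 1.76-fold in TR3 (-0.82 ± 0.11) and 1.14-fold in TR2 (-0.19 ± 0.11). The receptor gene PROKR2 was tested and was not called. The neutrophil genes MPO, ELANE, CSF3R and CXCR2 were detected on 0 of 8 arrays. FCGR3B was detected on both arrays of TR1 and TR3 and on 1 array each of WT and TR2. LCN2 was detected on both arrays of TR2 and TR3, 1 TR1 array and no WT array. S100A9 was detected on 1 TR1 array, and LYZ on 1 array each of WT and TR2. Of 12 neutrophil and monocyte markers, 0, 1, 1 and 2 were on in WT, TR1, TR2 and TR3, and their summed intensity was 618 to 748, 706 to 752, 781 to 806 and 743 to 755. Their part in the PROK2 values was not tested.

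COBLL1 encodes a relative of the actin nucleator cordon-bleu, and CABCOCO1 a ciliary calcium-binding coiled-coil protein, older symbol C10orf107. COBLL1 read 122 and 118 in WT, 68.8 and 52.9 in TR1, 151 and 146 in TR2, and 59.7 and 64 in TR3. CABCOCO1 read 116 and 94.2 in WT, 63.1 and 58 in TR1, 191 and 142 in TR2, and 59.1 and 57.5 in TR3. For both genes the WT and TR2 arrays were detected and separate from the TR1 and TR3 arrays, which lay at background; the nearest to the threshold was COBLL1 on TR1 array A, with a detection p-value of 0.0543. Since an undetected probe gives only a bound, COBLL1 was at least 2.9-fold lower in TR1 and at least 3.08-fold lower in TR3 than in WT. CABCOCO1 was at least 2.35-fold lower in TR1 and at least 2.49-fold lower in TR3. These bounds hold for the background correction used: without it, the differences were -0.98 and -1.05 for COBLL1 and -0.79 and -0.94 for CABCOCO1 in TR1 and TR3. In TR2 both stood above WT, COBLL1 by 0.33 ± 0.15 and CABCOCO1 by 0.83 ± 0.15, with no overlap between the arrays.

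The relative of COBLL1, COBL itself, was also lower in TR1, with a log2 difference of -1.66 ± 0.17 (limma adjusted p = 0.00126, n = 2 arrays per line). In TR2 and TR3 COBL stood at -0.21 ± 0.17 and -0.61 ± 0.17 (adjusted p = 0.695 and 0.292), and it differed among the subclones (adjusted p = 0.00297, moderated F test). COBL kept its TR1 call without any 1 array and under each of the other settings tried. Its size was smaller in some of these, -0.91 without background correction and -0.85 with an offset of 50. Of 14 motile cilium genes on the array, 5 were tested and 0 were called against WT in any subclone, too few to set apart from the 2.78% of all tested genes.

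FAM81A, a coiled-coil protein gene expressed in brain and found at synapses, was low in TR1. Its intensity was 162 and 147 in WT, 74.7 and 61.9 in TR1, 185 and 153 in TR2, and 140 and 119 in TR3. TR1 was lowest, with 1 of 2 arrays detected, TR3 was between, and TR2 overlapped with WT. The differences from WT were -1.96 ± 0.15 in TR1 (3.88-fold lower, or -1.16 without background correction), -0.54 ± 0.15 in TR3 and 0.07 ± 0.15 in TR2. Of 11 brain markers on the array, 2, 1, 1 and 2 were on in WT, TR1, TR2 and TR3, with summed intensities of 963 to 1037, 989 to 1043, 1058 to 1092 and 1117 to 1161. DLG4 was detected on both arrays of every line. SNAP25 was detected on both WT and both TR3 arrays, 1 TR2 array and neither TR1 array. In the other direction, NEFL and STMN2 were each detected on 1 TR1 array and on none of the other lines. SYN1 was detected on 1 array each of WT and TR2, RBFOX3 on 1 each of WT and TR1, and SYT1, CAMK2A, GRIN1, GRIA1 and GFAP on 0 arrays. Their part in the FAM81A values was not tested.

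SH3BP5 and SH3BP4 share a name because their proteins bind SH3 domains. SH3BP5 (Sab) activates the endosomal GTPase RAB11 and binds the kinases BTK and JNK, and SH3BP4 binds Rag GTPases and takes part in transferrin receptor uptake. Their patterns were opposite in TR1. The representative SH3BP5 probe (ILMN_1814773) read 67.5 and 63.4 in WT, 125 and 99.6 in TR1, 65.7 and 61.2 in TR2, and 80.4 and 68.9 in TR3, so TR1 alone stood clear of the rest. TR1 exceeded WT by 1.44 ± 0.17 (2.71-fold), TR3 lay at 0.09 ± 0.17, and no fold is given for TR2, where the probe was off, because it was detected on 1 of 2 WT arrays only. Without background correction the TR1 difference was 0.78. The other SH3BP5 probes, ILMN_1675898 and ILMN_1683799, were detected on 0 of 8 arrays, with intensities from 43.9 to 68.5. Of these, ILMN_1675898 read 64.6 and 62.9 in TR1 against 51.1 and 43.9 in WT, all at background, and ILMN_1683799 overlapped between the lines. ILMN_1683799 was designed for the same transcript record as the representative probe and ILMN_1675898 for the other SH3BP5 record of the platform annotation.

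SH3BP4 read 103 and 92.8 in WT, 65.7 and 58.2 in TR1, 97.5 and 106 in TR2, and 76.6 and 77 in TR3. It was off in TR1, where it was at least 2.14-fold lower than WT (a log2 difference of -0.67 without background correction), and lower by 1.86-fold in TR3 (-0.89 ± 0.13). TR2 overlapped with WT (-0.11 ± 0.13). Of 18 genes related to or interacting with SH3BP4, SH3BP5, COBLL1 and FAM81A, 16 were tested and 2 were called against WT. Over all tested genes 2.78% were called in at least 1 subclone, or 12.6% with the replicate block. No difference from these shares was tested. Besides COBL, RAB11FIP1, an effector of RAB11, was called, higher in TR1 by 0.8 ± 0.12 (adjusted p = 0.00917). That call was lost without either TR1 array or without WT array B (adjusted p from 0.06 to 0.0706). In TR2 RAB11FIP1 stood at 0.6 ± 0.12 (adjusted p = 0.0759) and in TR3 at 0.46 ± 0.12 (adjusted p = 0.253). With the replicate block, on the authors' processed values, its TR2 difference was 0.32 (adjusted p = 0.0369). The block also added calls in TR1 for RRAGD, a Rag GTPase (-0.41, adjusted p = 0.00651), TFRC, the transferrin receptor (-0.31, adjusted p = 0.0343), and RAB11B (0.28, adjusted p = 0.039).

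**Figure D2:**
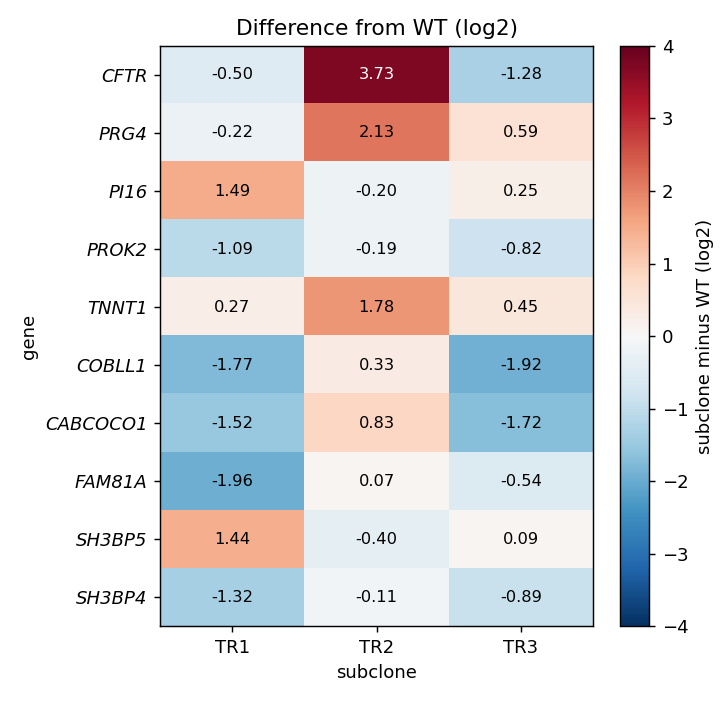
Log2 difference from WT of each of the 10 genes (rows) in TR1, TR2 and TR3 (columns), with the value printed in each cell and red for higher. CFTR in TR2 (3.73) is the darkest cell, and COBLL1 and CABCOCO1 are negative in TR1 and TR3 and positive in TR2. Cells of lines where a probe was off hold fitted values, not bounds.

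Taking the subclones in turn, 7 of 10 genes differed from WT by at least 2-fold in TR1 (0.891% of tested probes did), 3 in TR2 (0.327%) and 3 in TR3 (0.206%), fewer in TR1 and TR3 under other background settings given in the closing section. In TR1 both arrays lay below both WT arrays for 5 genes and above for 3, where 21% and 23.9% of tested probes did so. In TR2 the counts were 2 (PROK2 and SH3BP5, which was off) and 5 (19.9% and 19.8%) and in TR3 6 and 2 (19.3% and 19.7%). The median difference from WT was -0.8 in TR1, 0.2 in TR2 and -0.68 in TR3, against 0.02, 0 and 0.01 over tested probes. The 3 subclones share the WT arrays. Between subclones, TR2 was above TR1 for CFTR, PRG4, PROK2, TNNT1, COBLL1, CABCOCO1, FAM81A and SH3BP4 with no overlap, by 0.9 (PROK2) to 4.23 (CFTR), and for PI16 TR2 minus TR1 was -1.69. SH3BP5 was on in TR1 and off in TR2. TR3 was below TR2 for the same 8 genes without overlap, with TR3 minus TR2 from -0.61 (FAM81A) to -5.01 (CFTR, whose TR3 mean rests on 1 detected array of 2). TR3 overlapped with TR2 for PI16 and lay above it for SH3BP5. The SH3BP5 probe was off in TR2 and near the detection threshold on TR3 array B.

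For each gene, the others whose values over the 8 arrays were most like it were read from 239 tested genes whose line means spanned at least 2-fold. COBLL1 and CABCOCO1 had the same pair, PPP2R2B, a regulatory subunit of protein phosphatase 2A (Pearson r = 0.984 and 0.986), and PLA2G4A, the cytosolic phospholipase A2 (0.978 and 0.99). The nearest to CFTR were CCDC26 (0.985) and WDR70 (0.983), and to PRG4 the synaptic gene SNAP91 (0.966) and TNNT1 (0.939). TNNT1 was nearest to SPATA20 (0.959) and SNAP91 (0.955). PI16 was nearest to TRIB2 (0.983) and ADD3 (0.96), and SH3BP5 to ADD3 (0.957) and TARP (0.951). PROK2 was nearest to MACROH2A2 and EFHD1 (0.967 each), FAM81A to SRXN1 (0.98) and HSPA4L (0.979), and SH3BP4 to LHFPL6 (0.974) and SPATS2L (0.972). The 8 points hold 4 lines in duplicate and the candidates were limited to variable genes, so these values describe likeness of level only.

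COBLL1 and CABCOCO1 shared an on and off pattern, and CFTR, PRG4 and TNNT1 were, like them, highest in TR2. The promoters of these 5 genes are therefore shown, from RefSeq on GRCh38.p14. Each is the 300 bases around the annotated start, 5′ to 3′ on the gene's strand, with CpG dinucleotides, the sites of DNA methylation, in capitals.
COBLL1 (chr2:164841383-164841682, minus strand): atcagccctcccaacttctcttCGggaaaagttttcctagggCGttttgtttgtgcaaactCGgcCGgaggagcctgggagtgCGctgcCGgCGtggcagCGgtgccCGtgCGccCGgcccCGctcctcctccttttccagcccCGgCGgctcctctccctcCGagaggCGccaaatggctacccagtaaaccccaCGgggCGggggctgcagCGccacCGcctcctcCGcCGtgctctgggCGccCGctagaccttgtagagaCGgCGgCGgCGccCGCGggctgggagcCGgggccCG
CABCOCO1 (chr10:61662679-61662978, plus strand): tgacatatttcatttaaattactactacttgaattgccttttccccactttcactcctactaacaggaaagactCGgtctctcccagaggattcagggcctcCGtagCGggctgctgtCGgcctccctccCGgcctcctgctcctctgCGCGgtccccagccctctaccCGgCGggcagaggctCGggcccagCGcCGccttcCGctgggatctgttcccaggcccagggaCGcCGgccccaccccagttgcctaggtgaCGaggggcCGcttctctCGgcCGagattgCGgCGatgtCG
CFTR (chr7:117479775-117480074, plus strand): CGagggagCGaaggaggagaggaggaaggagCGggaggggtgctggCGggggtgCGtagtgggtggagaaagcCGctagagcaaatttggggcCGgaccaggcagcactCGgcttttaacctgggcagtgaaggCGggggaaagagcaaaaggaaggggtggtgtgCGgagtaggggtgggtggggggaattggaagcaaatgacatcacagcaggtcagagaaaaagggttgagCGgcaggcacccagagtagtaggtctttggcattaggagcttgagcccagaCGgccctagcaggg
PRG4 (chr1:186296029-186296328, plus strand): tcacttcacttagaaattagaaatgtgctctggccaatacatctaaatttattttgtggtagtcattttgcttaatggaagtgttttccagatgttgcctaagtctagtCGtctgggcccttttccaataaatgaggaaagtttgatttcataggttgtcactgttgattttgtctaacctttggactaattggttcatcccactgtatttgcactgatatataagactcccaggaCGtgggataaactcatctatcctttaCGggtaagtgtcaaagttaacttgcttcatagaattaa
TNNT1 (chr19:55149157-55149456, minus strand): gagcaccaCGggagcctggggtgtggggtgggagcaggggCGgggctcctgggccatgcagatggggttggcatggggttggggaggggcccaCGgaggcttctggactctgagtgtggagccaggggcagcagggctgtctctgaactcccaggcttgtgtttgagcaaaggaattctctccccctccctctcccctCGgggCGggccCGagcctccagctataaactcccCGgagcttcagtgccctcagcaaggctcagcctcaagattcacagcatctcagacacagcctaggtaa

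All 10 genes had an entry in the promoter table. The COBLL1 window holds 32 CpG and the CABCOCO1 window 22, against a median of 21 over 22197 protein-coding promoters of this length (quartiles 7 and 31). CFTR, TNNT1 and PRG4, highest in TR2 as COBLL1 and CABCOCO1 also were, had 12, 7 and 3. PI16, highest in TR1, had 3 and SH3BP5 31, while PROK2 had 55, FAM81A 51 and SH3BP4 10. In all, 5 of the 10 genes fell below the median, so the genes did not share a CpG-poor or a CpG-rich start.

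Of 5 short motifs searched on both strands, a GC box (GGGCGG) was present in the windows of COBLL1, TNNT1, PROK2, FAM81A and SH3BP5, 5 of 10, as in 56.3% of all promoters. The TATA box motif TATAAA was present in TNNT1 on the gene's strand. In PROK2 it was present on the opposite strand only. On either strand it was found in 9.47% of all. The AP-1 motif TGANTCA was found in PROK2 and SH3BP4 (6.15% of all), the RUNX motif TGTGGTT in PI16 (3.69%) and the E-box CACGTG in PROK2 (8.34%). No motif of these 5 was common to all 10 windows, and CFTR, PRG4 and CABCOCO1 held 0 of them. These matches describe the letters of the reference, and other start sites were not searched.

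Position in the genome was not used in choosing the genes, so the expression of their neighbours could be tested. For each gene the 5 nearest protein-coding genes on either side were taken in the order of GRCh38.p14, which gave 100 genes, of which 90 were on the array and 60 were tested. In at least 1 subclone 6 of the 60 were called against WT (10%), where 2.78% of the 10681 tested genes were; with the replicate block it was 14 (23.3%), where 12.6% were. By subclone, 6 were lower in TR1 (2.36% of genes were called there), 1 was higher and 1 lower in TR2 (0.646%), and 2 were lower in TR3 (0.318%). Their median difference from WT was -0.01 in TR1, 0 in TR2 and -0.06 in TR3. Without WT array B 3 were called. Among the subclones 8 of 60 differed, where 3.89% of genes did, or 19 with the block, where 13.3% did. No difference between the neighbours and other genes was tested.

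Some of the 6 neighbours stood on the same side of WT as the gene beside them and others did not, and no test compared the pairs. On the higher-coordinate side of TNNT1 lie TNNI3, the cardiac troponin I gene, and DNAAF3, a factor for assembling dynein arms. DNAAF3 was lower in TR1 (-0.97 ± 0.13, adjusted p = 0.00443) and higher in TR2 (0.78 ± 0.13, adjusted p = 0.0296), with a value of 0.62 ± 0.13 in TR3 (adjusted p = 0.132). With the replicate block, which is fitted on the authors' processed values, the TR3 difference of DNAAF3 was 0.57 (adjusted p = 0.00115). TNNT1 too was highest in TR2, but in TR1 it stood slightly above WT. The DNAAF3 call in TR1 was lost without TR1 array A (adjusted p = 0.0501), and that in TR2 without TR2 array B, either WT array, either TR1 array or the filter on dim probes (0.0543 to 0.212). TNNI3 was lower in TR1 by a small amount (-0.54 ± 0.12, adjusted p = 0.0485). That call was lost without any 1 array and under the other settings tried except the stricter detection filter and the replicate block. With the block, on the processed values, the TNNI3 difference was -0.27 (adjusted p = 0.0478).

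EIF4E3, a cap-binding protein gene next but 1 to PROK2, was lower in TR1 (-0.89 ± 0.11, adjusted p = 0.00236), as PROK2 was, and stood at -0.52 ± 0.11 in TR3 (adjusted p = 0.124). PLA2G4A, the fifth gene from PRG4, was lower in TR1 (-1.16 ± 0.11, adjusted p = 0.001) and TR3 (-1.12 ± 0.11, adjusted p = 0.00337), while PRG4 overlapped with WT in TR1 and lay above it in TR3. PLA2G4A thus resembled CABCOCO1, on another chromosome, more than its neighbour. The mean log2 value of PLA2G4A was 4.43 in TR1 and 4.48 in TR3, below the lowest detected value of every array (4.695 to 4.855). Its differences there are therefore fitted values and not bounds. Without background correction they were -0.59 in TR1 and -0.56 in TR3. IFIH1, a sensor of double-stranded RNA and the fifth gene from COBLL1, was lower in all 3 subclones (-0.68, -0.79 and -0.82, each ± 0.1), including TR2, where COBLL1 was above WT. The adjusted p of IFIH1 was 0.00874, 0.00881 and 0.0105, and each call was lost without either array of that subclone or without WT array B (0.056 to 0.133). ZNF365, the third gene from CABCOCO1, was lower in TR1 (-0.77 ± 0.12, adjusted p = 0.00927) and at 0.22 ± 0.12 in TR3 (adjusted p = 0.571), whereas CABCOCO1 was off in both. The ZNF365 call was lost when TR1 array B (0.0747) or array B of WT (0.0582) was left out.

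Of the 5 tested neighbours of CFTR, including MET and the CAPZA2 and ST7 genes, 0 were called without the block, and with it CAPZA2 had a log2 difference of -0.54 in TR2 (adjusted p = 0.00647) and ST7 of -0.38 in TR1 (adjusted p = 0.00958). For PROK2, SHQ1 had a difference of 0.36 in TR2 with the block (adjusted p = 0.015). Against WT and without the block, the 10 tested neighbours of SH3BP5 gave 0 calls, as did the 7 of FAM81A, the 5 of PI16 and the 4 of SH3BP4. With the block FGD5, the fifth gene from SH3BP5, was lower in TR1 (-0.86, adjusted p = 1.27e-05), while SH3BP5 was higher there. With it ACKR3, a chemokine scavenger receptor gene near SH3BP4, was lower in TR2 (-0.55, adjusted p = 0.000637) and TR3 (-0.35, adjusted p = 0.0391), and PPIL1 near PI16 was lower in TR3 (-0.36, adjusted p = 0.0404). ARID5B, next to CABCOCO1, differed among the subclones without the block (adjusted p = 0.0226), as did GCA near COBLL1 (0.00993) and ACKR3 (0.0115). With the block ARID5B was also lower than WT in TR1 (-0.34, adjusted p = 0.0151) and higher in TR2 (0.39, adjusted p = 0.013). GCA with the block was higher in TR1 (0.41, adjusted p = 0.0225) and lower in TR3 (-0.43, adjusted p = 0.0379).

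**Figure D3:**
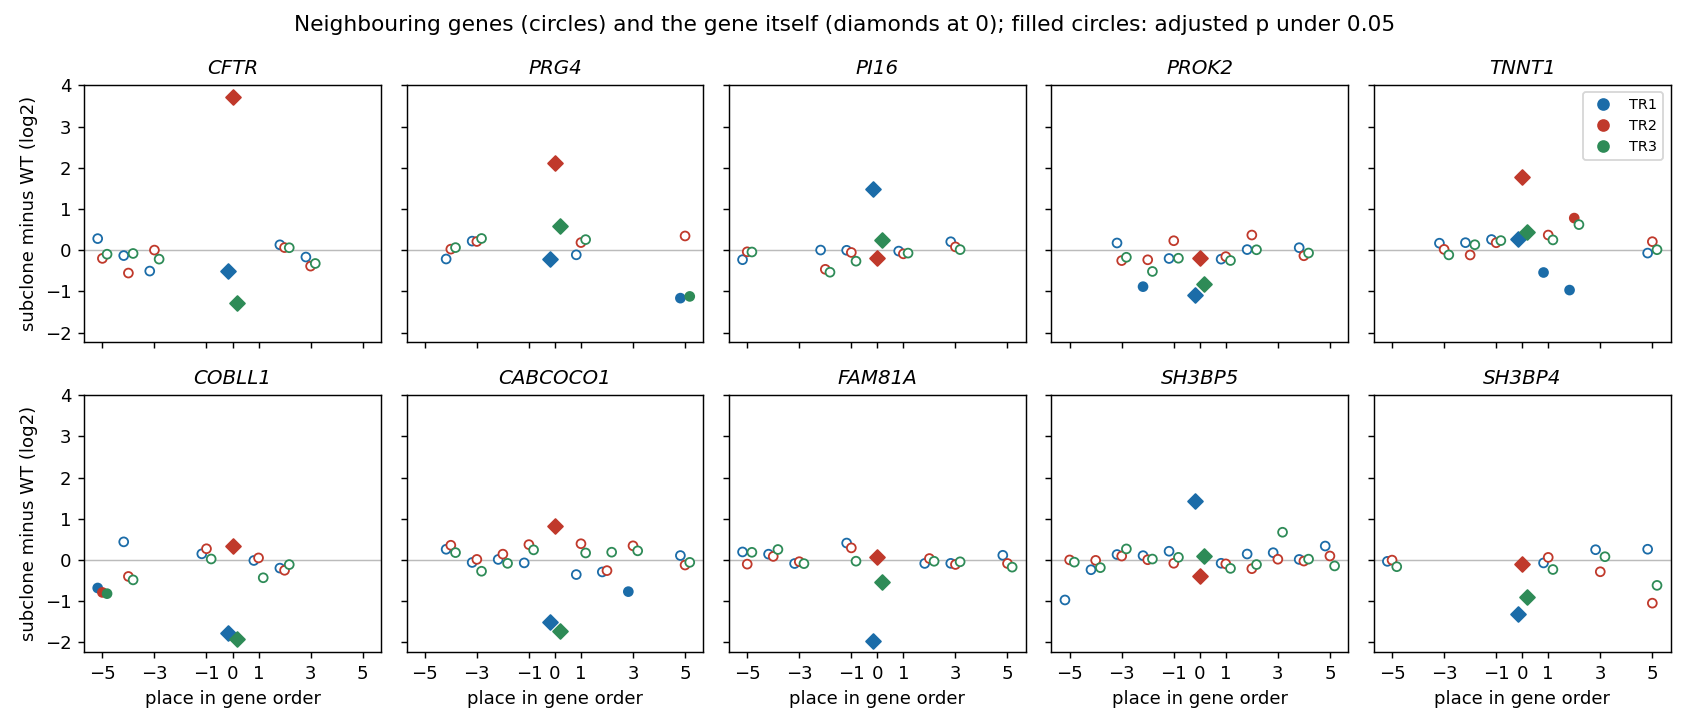
Log2 difference from WT (vertical axis) of the tested neighbours of each gene (circles), by place in gene order from 5 before to 5 after (horizontal axis), with the gene itself as diamonds at 0, in TR1, TR2 and TR3. Filled circles have an adjusted p under 0.05 and belong to 6 neighbours; the genes themselves were chosen for their differences, so diamonds and circles are not compared.

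The replicate number was also not used in choosing the genes, and it could be tested on the authors' processed values, which carry it. CFTR had a log2 difference of -0.35 ± 0.09 between replicate 2 and replicate 1 (limma adjusted p = 0.0234, lower in 3 of 4 lines and alike in TR1), and PI16 a difference of -0.33 ± 0.08 (adjusted p = 0.0157, likewise). CFTR read 138 and 88 in WT, 88.7 and 88.7 in TR1, 1152 and 769 in TR2, and 71.7 and 64.8 in TR3 for replicates 1 and 2. PI16 read 2569 and 1901, 6136 and 6136, 2384 and 1562, and 2875 and 2374 in the same lines. The WT and TR2 cultures carried most of both differences, and in TR1 the replicates were alike. FAM81A was lower in replicate 2 in 4 of 4 lines (-0.14 ± 0.06) but was not called (adjusted p = 0.202). In total 2 of 10 genes were called, both lower in replicate 2, where 4.86% of tested probes were called and 1.71% called lower. The other 8 genes had an adjusted p from 0.202 to 0.994. These replicate differences were smaller than the TR2 difference of CFTR from WT (3.09 on the processed scale) and the TR1 difference of PI16 (1.47).

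**Figure D4:**
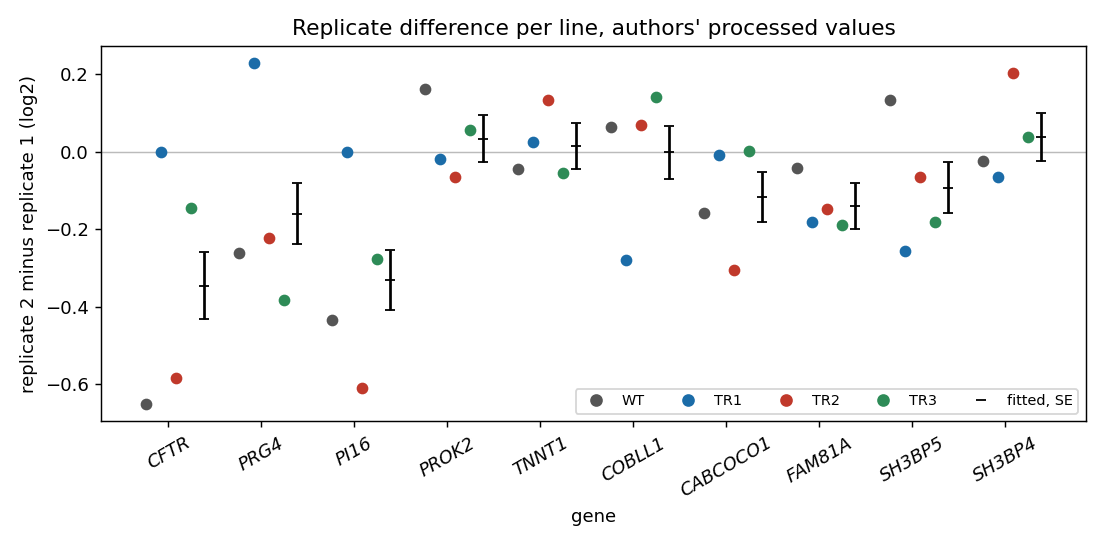
Difference between replicate 2 and replicate 1 (log2, vertical axis) in the authors' processed values for each gene (horizontal axis), with 1 coloured point per line and the fitted mean with its SE in black. CFTR (-0.35) and PI16 (-0.33) lie lowest, with their TR1 points at 0.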

How the data were processed

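The deposited values are linear probe intensities with a detection p-value per probe and array, per the file headers, and a second set of processed intensities from the authors. The submitters' processing notes name limma but no version. The number of columns left unmatched was 0. Raw columns carry letters A and B, processed columns replicate numbers, and these were not matched to each other. Their values can run in the same order: CFTR in TR2 read 1183 and 728 on arrays A and B. For replicates 1 and 2 it read 1152 and 769.

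Intensities were corrected by normexp from the detection p-values (offset 16), quantile normalised and taken to log2 with limma 3.58.1 in R 4.3.3. The 13130 probes detected (p-value under 0.05) on each array of some line were tested. A group-means model with lmFit and eBayes over 8 arrays (4 residual degrees of freedom) gave differences and SE, with Benjamini-Hochberg adjustment over tested probes; the model was tested on simulated data. Precision is limited by having 2 arrays per line. A line whose arrays both miss a probe has only a bound, set by the lowest detected value per array. Symbols were updated or kept through gene identifiers, matched for 19695 of 19715 named probes, and the brightest tested probe represents a gene.

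Members and lists were chosen with earlier results of these data known. Named are all members, neighbours called in any comparison, up to 4 called relatives per list and 2 genes of like pattern per member; markers, neighbours called only with the block and cases not called were named after their values were seen. Replicate differences correlated in all 6 pairs of lines (r from 0.28 to 0.432 across probes), so the numbers pair the samples. The main fit holds no replicate term and so leaves this pairing out. The fit with the numbers as a block was made on the processed values only. It therefore differs from the main fit in background correction as well. Calls that it added among the neighbours and related genes are given in the report. Other settings tried were no background correction, an offset of 50, cyclic loess, the processed values, no filter, a detection threshold of 0.01 and each array left out.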

Additional observations from a re-analysis of the deposited data

Results flagged for a closer look

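For 4 genes both arrays of 1 subclone lay above both WT arrays and both arrays of another lay below, in log2 difference from WT. CFTR stood at 3.73 in TR2 and -1.28 in TR3. Its probe was detected on 1 of 2 TR3 arrays. The TR3 value was -0.69 without background correction and -0.76 without WT array A. COBLL1 stood at 0.33 in TR2, -1.77 in TR1 and -1.92 in TR3, and CABCOCO1 at 0.83 in TR2, -1.52 in TR1 and -1.72 in TR3. SH3BP5 stood at 1.44 in TR1 and -0.399 in TR2, but its probe was off on both TR2 arrays and on WT array A, its deposited intensities overlapped between TR2 and WT, and the TR2 value was -0.17 with an offset of 50, so it shows no order of TR2 and WT. No test of the differences between subclones is read for these genes, because they were chosen on those differences. Values of lines where a probe was off are fitted values and not bounds.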

How the results depend on the processing

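Of 30 differences from WT (10 genes in 3 subclones), 13 were at least 2-fold. Of the settings, 7 could move a given difference (no background correction, an offset of 50, cyclic loess, and each array of WT or that subclone left out). Under these, 91 of 91 values of the 13 kept their sign and 76 stayed at least 2-fold, and over all 30, 201 of 210 kept their sign. The filters leave the differences as they are, and the authors' processed values, with or without the block, repeat those without background correction. The number of genes at least 2-fold from WT in TR1 fell from 7 to 2 without background correction, 2 on the authors' processed values, 2 on those with the replicate block and 3 with an offset of 50. In TR3 it fell from 3 to 1 in each of these settings, which add to or leave in the background of dim probes, and in TR2 it was 3 in all of them. Without background correction COBLL1 in TR1 stood at -0.98, CABCOCO1 at -0.79 and SH3BP4 at -0.67. Among the neighbours and related genes, EIF4E3 in TR1 then stood at -0.47, ZNF365 at -0.4, IFIH1 at -0.38 and RAB11FIP1 at 0.44. DNAAF3 in TR1 stayed nearer to its main value, at -0.84. At a detection threshold of 0.01 the genes on in each line moved by at most 1.

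Probes called against WT went from 295 to 169 in TR1, 83 to 46 in TR2 and 39 to 17 in TR3 without the filter on dim probes, which tests more probes. With the replicate block they were 1151, 510 and 296, and 1675 among the clones, against 487. Leaving out each array gave 109 to 264, 28 to 76, 11 to 32 and 252 to 512. Neighbours called were 14 with the block, against 6, and 3 to 6 without 1 array. Related genes called were 8 with the block (17%, where 12.6% of genes were), against 3 of 47 (6.38%, where 2.78% were), and 1 to 4 without 1 array (1 without either TR1 array or without WT array B). TNNI3 is counted both among the neighbours and among the related genes. For a subclone left with 1 array, that array is assumed to vary like the other lines. Probes called between replicate numbers were 638, 646 and 642 under the 3 filters.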
